A study of Mus musculus with 12 samples.

Results

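BV2 cells that carry an shRNA against Anxa2 were followed through OGD/R, that is, oxygen-glucose deprivation with a later return of oxygen and glucose. The members are the 6 libraries whose sample names read shAnxa2-CTRL (untreated, 3 libraries) and shAnxa2-OGDR (after OGD/R, 3 libraries), out of 12 libraries in the series. The other 6 libraries, 3 named shCtrl-CTRL and 3 named shCtrl-OGDR, come from BV2 cells with a control shRNA and show where the knockdown line differed. They also enter the filter for expressed genes, the scaling of counts and the estimate of spread between replicates. BV2 is an immortalized line of mouse microglia, and both lines were made stable with a lentiviral pLKO.1 vector and puromycin selection, which every group shares. A single shRNA stands for the knockdown, and no second shRNA was sequenced. OGD/R is a culture model of ischemia and reperfusion, in which the medium is replaced by one without glucose under 1% oxygen for 4 h and normal medium is then returned. The labels give 12 h of reoxygenation, and the paper's methods give a longer time for BV2 cells. Groups were taken from the sample names. The cell type and genotype fields of the same samples follow the treatment instead of the shRNA, so that shCtrl-OGDR libraries carry the words for a knockdown and shAnxa2-CTRL libraries the words for a control. The paper's methods call the libraries of a group biological replicates, each made up of technical ones. Both lines are single stable lines, so p-values measure the spread between replicates of 1 line for each shRNA.

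Annexin A2, the protein encoded by Anxa2, binds membrane phospholipids when calcium is present. With S100A10 it forms a complex at the cell surface that helps to turn plasminogen into plasmin. Microglia are the resident macrophages of the brain. In ischemia they meet low oxygen, lack of glucose and, when flow returns, oxidative stress. Cells answer these conditions through sensors that have their own sets of target genes. Low oxygen stabilizes the HIF transcription factors, shortage of amino acids and unfolded protein in the endoplasmic reticulum (ER) raise translation of ATF4, and inflammatory signals release NF-κB.

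The 6 shAnxa2 libraries held 19946882 to 25260931 counts each, with a median of 20755268. Expression is given here as CPM, that is, counts scaled to a common library size, with TMM factors from edgeR, and a log2 fold change of 1 is a doubling. A gene was tested when it had at least 0.5 CPM in at least 3 of the 12 libraries, which left 11626 of 21834 genes. Replicates varied by 5.36% beyond counting error (common biological coefficient of variation). Of 16 microglia and macrophage identity markers, 15 had a mean of at least 1 CPM over the 6 libraries, and C1qa was below it. Of the markers of other cells, 1 of 10 astrocyte genes (Aldoc), 1 of 11 neuron genes (Eno2), 2 of 10 oligodendrocyte genes and 0 of 10 lymphocyte genes reached that level, and 3, 6, 2 and 6 of these lists had no count in the 6 libraries. Of 12 endothelial and fibroblast markers, 2 did, and both rose: Kdr, a receptor for vascular endothelial growth factor, and Cdh5, given below with the genes that rose most. Kdr was at 117, 115 and 122 CPM in the untreated libraries and 225, 226 and 226 CPM after OGD/R (log2 fold change 0.93, adjusted p = 1.13e-13). The summed level of this list went from between 116 and 124 CPM to between 227 and 228 CPM with it, and its part in the other results was not tested. In RNA from a whole culture, fewer cells of a state and less RNA per cell cannot be told apart.

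The libraries stood in an order that the sample names alone would not give. The distance of 2 libraries was measured over the genes tested, on log2(CPM + 0.1), by squaring the differences and taking the root of their mean. Each untreated shAnxa2 library was nearer to the shCtrl libraries after OGD/R (0.451 to 0.456) than to the untreated shCtrl libraries (0.55 to 0.569). Every shAnxa2 library after OGD/R was nearer to the untreated shCtrl libraries (0.396 to 0.434) than to those after OGD/R (0.664 to 0.679). The 100 most counted genes held 19.5% to 19.8% of the reads in the untreated shAnxa2 libraries and 17.7% to 18.2% in those after OGD/R. In shCtrl cells the same share was 17.6% to 17.8% without and 19.1% to 19.4% after OGD/R. As named, Anxa2 rose by 0.70 and Nos2 by 4.12 in shCtrl cells (log2 fold changes). In the same cells Tnf changed by −0.74, Il1b by −1.31 and Ptgs2 by −0.40. Nos2 after OGD/R was at 5.43 to 8.47 CPM in shAnxa2 and 48.8 to 58.2 CPM in shCtrl cells. The direction of every change reported here rests on the treatment part of the sample names. An opposite response of the 2 lines and an exchange of the treatment names within 1 line cannot be told apart from these counts.

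**Figure D1:**
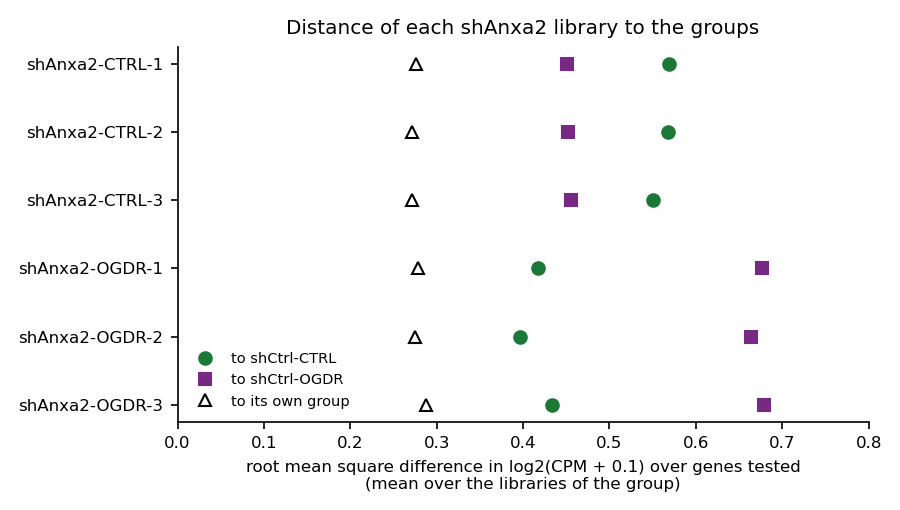
Distance of each of the 6 shAnxa2 libraries (vertical axis) to its own group and to both shCtrl groups, as the root mean square difference in log2(CPM + 0.1) over the 11626 genes tested (horizontal axis), each symbol being the mean over the libraries of a group. The untreated libraries lie nearer to shCtrl-OGDR and the libraries after OGD/R nearer to shCtrl-CTRL.

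Anxa2 checks the shRNA part of the names and not the treatment part. Anxa2 (ENSMUSG00000032231, chromosome 9, plus strand, 69360902 to 69399077 by the deposited coordinates, whose build the labels give as mm39) was at 35.0, 44.4 and 41.8 CPM in the untreated shAnxa2 libraries and at 18.2, 20.1 and 20.6 CPM after OGD/R. All 6 values lie below the lowest shCtrl library, at 164.5 CPM. Within the knockdown line the level after OGD/R was lower in every library, with a log2 fold change of −1.04 ± 0.08 (SE) and an adjusted p of 3.05e-10. This p comes from the quasi-likelihood test of edgeR, adjusted by Benjamini-Hochberg over the genes tested, the test used throughout. Errors after a log2 fold change are standard errors. The exact two-sided permutation test of the 3 against 3 values gave p = 0.1, the smallest that this design allows. In shCtrl cells the log2 fold change of Anxa2 was 0.70, and the difference between the lines was −1.74 ± 0.10 (SE, adjusted p = 3.35e-13). S100a10, which encodes the partner of annexin A2, did not pass the test, with 42.4 to 53.2 CPM without and 40.2 to 45.0 CPM after OGD/R.

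At an adjusted p under 0.05, 3274 genes (28.2% of those tested) were higher and 3118 genes (26.8%) lower after OGD/R. These shares are the background for the counts of called genes in every list below. Most of the changes were small. Below 1.5-fold lay 2789 of the higher and 2202 of the lower genes, and the median size of the log2 fold change was 0.36 over called genes and 0.24 over all genes tested. At least 2-fold changes were found in 94 higher genes (0.809%) and 318 lower genes (2.74%), and at least 4-fold changes in 9 higher and 46 lower genes. The 2-fold genes were mostly expressed at a low level. Their median was 0.981 CPM for the higher and 2.35 CPM for the lower genes against 35.3 CPM over all genes tested, and 71 of the 94 and 209 of the 318 lay under 5 CPM. The 3 libraries after OGD/R lay wholly above the 3 untreated ones for 3505 genes (30.1%) and wholly below for 3343 genes (28.8%), and for 84 of the 94 and 313 of the 318 genes with 2-fold changes.

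**Figure D2:**
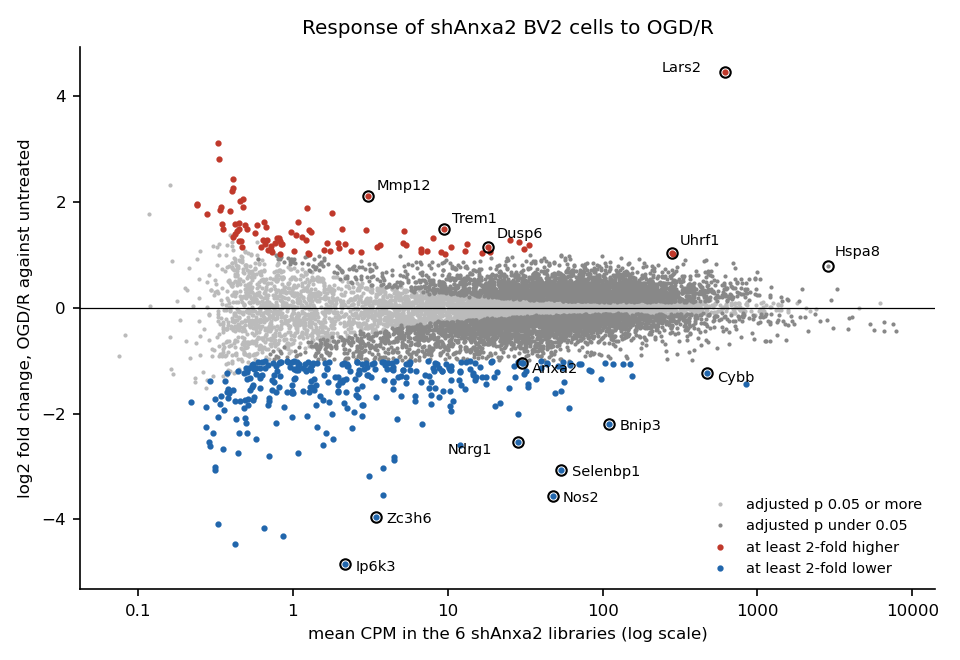
Log2 fold change of OGD/R against untreated shAnxa2 cells (vertical axis) against the mean CPM in the 6 libraries (horizontal axis, log scale), one point per gene tested. Red and blue points are the 94 higher and 318 lower genes with at least a 2-fold change at an adjusted p under 0.05; named genes are circled, and Lars2 at the top rests on 1 library.

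Mmp12 rose most of the genes that averaged 1 CPM or more and showed no overlap between the groups. Mmp12 encodes a macrophage elastase that cuts elastin and other matrix proteins. It was at 1.03, 1.25 and 1.11 CPM in the untreated libraries and 6.17, 4.33 and 4.32 CPM after OGD/R (log2 fold change 2.12 ± 0.21, adjusted p = 1.35e-08). Trem1, a receptor of myeloid cells that amplifies inflammatory signals, was at 5.48, 4.23 and 5.08 CPM without and 15.6, 13.3 and 12.8 CPM after OGD/R (1.49 ± 0.13, adjusted p = 9.53e-10). Arc, an immediate early gene best known from neurons, was at 2.64, 2.84 and 2.86 CPM without and 7.70, 6.99 and 8.20 CPM after OGD/R (1.45 ± 0.14, adjusted p = 8.20e-09). These 3 genes were chosen under the condition of no overlap between the groups. After OGD/R the first library was the highest of its group for Mmp12 and Trem1.

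The other genes among the 12 that rose most were near 1 to 4 CPM. Dmpk, a protein kinase expressed in muscle, had a log2 fold change of 1.89, and Ryr1, a calcium channel of the ER, one of 1.498. Cell surface receptors and their ligands were Cxcr3, a chemokine receptor, at 1.79, Treml4, of the same family as Trem1, at 1.47, Efnb3, an ephrin, at 1.37, and Mdk, the growth factor midkine, at 1.43. Cdh5, the cadherin of endothelial junctions, rose by 1.62 from 0.293 to 0.834 CPM in the untreated libraries to 1.31 to 1.89 CPM after OGD/R. Cdk5r1, an activator of the kinase CDK5, changed by 1.47, and Hes1, a repressor downstream of Notch, by 1.34.

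Genes that fell moved further than those that rose. Nos2 encodes the inducible nitric oxide synthase, the source of nitric oxide in activated macrophages, and lies on the plus strand of chromosome 11 (78811613 to 78851080, mm39). It was at 93.8, 87.6 and 81.5 CPM in the untreated libraries and at 8.47, 8.38 and 5.43 CPM after OGD/R, 11.7-fold lower (log2 fold change −3.55 ± 0.11, adjusted p = 8.33e-17). Selenbp1, a selenium-binding protein that oxidizes methanethiol, was at 90.6, 98.7 and 101 CPM without and 11.02, 10.8 and 12.8 CPM after OGD/R (−3.07 ± 0.11, adjusted p = 8.99e-16). Ndrg1, a stress gene induced by low oxygen, was at 49.0, 49.7 and 47.7 CPM without and 6.99, 8.54 and 9.65 CPM after OGD/R (−2.54 ± 0.10, adjusted p = 6.40e-15). For all 3 genes the lowest untreated library stood several-fold above the highest library after OGD/R.

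Ip6k3, an inositol hexakisphosphate kinase, had the largest change of the rule, from 4.55, 4.57 and 3.38 CPM to 0.204, 0.0795 and 0.146 CPM. The last 3 values are 4, 2 and 3 counts, so the log2 fold change of −4.86 ± 0.35 (adjusted p = 6.91e-11) is set by few reads. Zc3h6, a zinc finger gene, was at 6.75, 5.97 and 6.63 CPM without and 0.306, 0.477 and 0.436 CPM after OGD/R (−3.95 ± 0.24, adjusted p = 4.79e-12). F10, which encodes coagulation factor X, was at 21.6, 20.2 and 19.9 CPM without and 3.47, 3.70 and 2.96 CPM after OGD/R (−2.60 ± 0.12, adjusted p = 4.56e-14). The rule that chose these genes required that the groups do not overlap. The remaining genes of the 12 were Aqp3, a channel for water and glycerol (−3.19), Vnn3 of the pantetheinase family (−3.04), Epm2a, the glycogen phosphatase laforin (−2.89), Rufy4, linked to autophagy (−2.83), Flt4, a receptor for vascular endothelial growth factors (−2.74), and Lbp, which presents lipopolysaccharide to CD14 (−2.59).

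**Figure D3:**
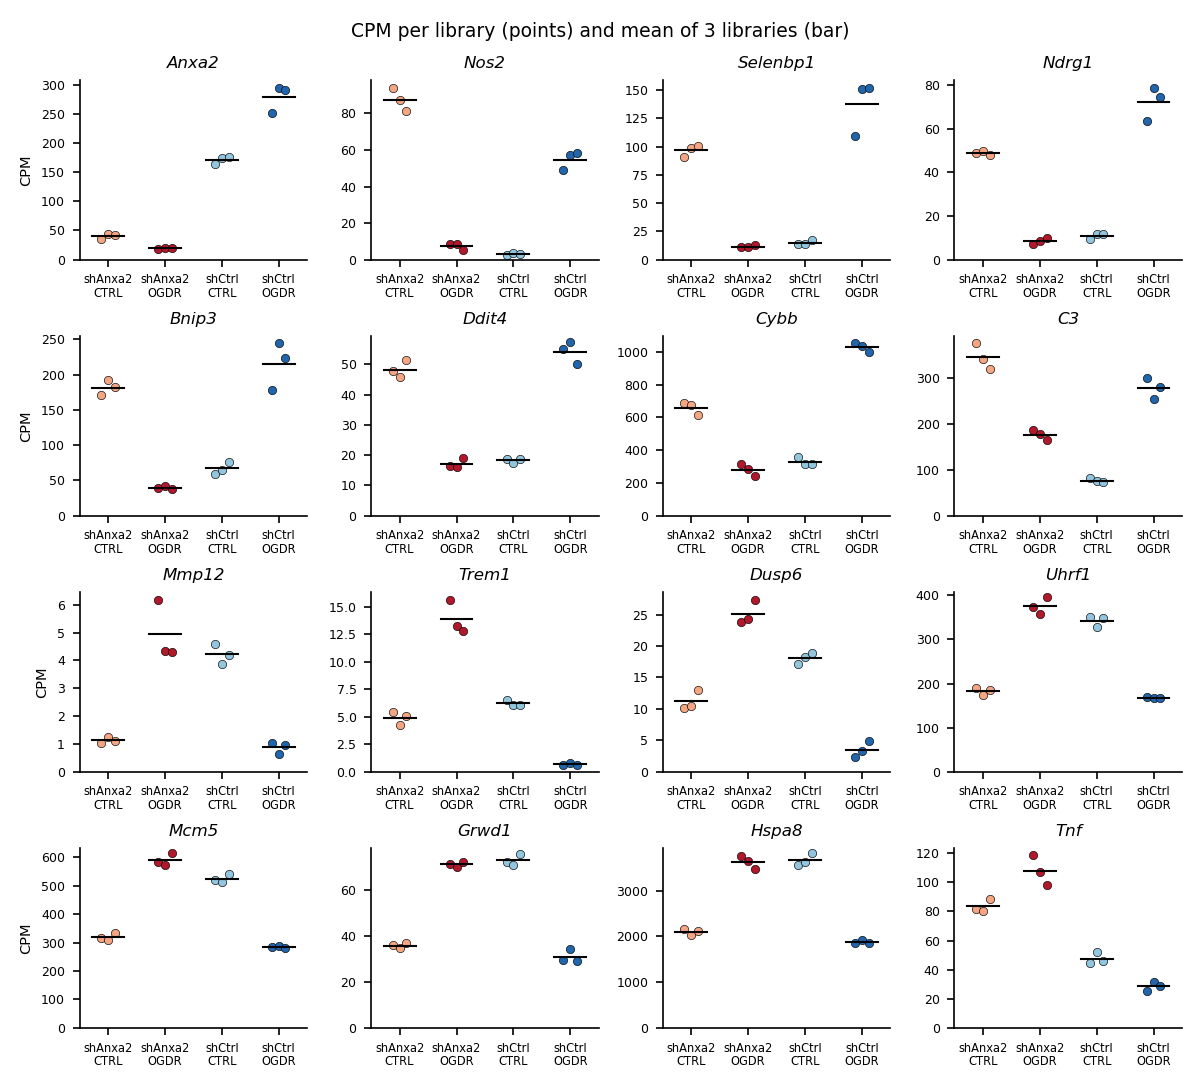
CPM of 16 genes (1 panel each, vertical axis from 0) in the 3 libraries of each of the 4 groups (horizontal axis), points being libraries and bars the group means. In shAnxa2 cells Nos2, Selenbp1, Ndrg1, Bnip3, Ddit4, Cybb and C3 are lower after OGD/R and Mmp12, Trem1, Dusp6, Uhrf1, Mcm5, Grwd1, Hspa8 and Tnf higher, without overlap between the 3 and 3 libraries; the shCtrl groups run the other way in these genes.

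Targets of the hypoxia-inducible factors were mostly lower after OGD/R. Of 39 members tested, 28 fell and 4 rose, against 26.8% lower and 28.2% higher over all genes, and the median log2 fold change was −0.41 where that over all genes was 0.004. Their summed level was 20640, 21120 and 21050 CPM in the untreated libraries and 16580, 16230 and 16830 CPM after OGD/R, without overlap. The members that fell most were Egln3, Ndrg1 (−2.54) and Bnip3. Egln3, an oxygen-sensing prolyl hydroxylase that is itself a HIF target, had 9, 9 and 15 counts without and 1, 2 and 2 counts after OGD/R (log2 fold change −2.62 ± 0.62, adjusted p = 0.000903). Bnip3, a receptor that marks mitochondria for removal, was at 171, 192 and 182 CPM without and 38.8, 42.6 and 37.6 CPM after OGD/R (−2.19 ± 0.09, adjusted p = 9.89e-15). Its relative Bnip3l was at 223 to 240 CPM without and 120 to 127 CPM after OGD/R (−0.89, adjusted p = 2.52e-12). The 3 that rose most were Car12, a carbonic anhydrase at the cell surface (0.87), Tfrc, the transferrin receptor (0.61), and Pfkfb3, which makes the activator of phosphofructokinase (0.43).

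The promoters of Bnip3 and Egln3 are shown because both genes lie at the lower end of the hypoxia list and carry the core of the hypoxia response element, ACGTG, the letters to which HIF binds. The sequences are those of RefSeq on build GRCm38.p6, read 5′ to 3′ in the direction of the gene, from 250 to 21 bases before the annotated start, with the matches on either strand in capitals. Bnip3 lies on the minus strand at chr7:138909527-138909756 and Egln3 on the minus strand at chr12:54203895-54204124.
Bnip3: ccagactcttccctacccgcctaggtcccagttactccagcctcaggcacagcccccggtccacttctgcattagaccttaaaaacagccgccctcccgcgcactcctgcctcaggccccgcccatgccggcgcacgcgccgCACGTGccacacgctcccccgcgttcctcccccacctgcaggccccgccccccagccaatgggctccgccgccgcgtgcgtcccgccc
Egln3: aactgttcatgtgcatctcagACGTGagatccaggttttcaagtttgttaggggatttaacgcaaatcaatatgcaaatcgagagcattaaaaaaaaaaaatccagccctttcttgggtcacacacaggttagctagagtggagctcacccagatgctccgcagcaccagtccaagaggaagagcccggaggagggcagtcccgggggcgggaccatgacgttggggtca
In Bnip3 the capitals hold 2 overlapping matches, 1 per strand, that begin 108 and 107 bases before the start and together form an E-box. In Egln3 the match begins 229 bases before the start. A promoter was on hand for 9345 of the 11626 genes tested. The core was found in 15 of 33 promoters of the hypoxia list (45.5%) and in 22.3% of all promoters. Among genes at least 2-fold lower the share was 22.6% of 248 promoters, close to that of all promoters. Among those at least 2-fold higher it was 15.0% of 60.

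Enzymes that break down glucose were mostly lower as well. Of 24 glycolysis genes tested, 17 fell and 3 rose, with a median log2 fold change of −0.29, and the summed level went from between 30730 and 31570 CPM to between 24010 and 24870 CPM. The members that fell most were Eno2, an enolase (−0.86, adjusted p = 3.05e-07), Aldoc, an aldolase (−0.75, adjusted p = 3.61e-08), and Pfkp, a phosphofructokinase. Pfkp was at 515, 523 and 558 CPM without and 325, 320 and 331 CPM after OGD/R (−0.71 ± 0.05, adjusted p = 4.09e-11). Slc16a1, the lactate carrier MCT1, changed against the list, from 222, 230 and 214 CPM to 370, 391 and 376 CPM (0.77 ± 0.05, adjusted p = 3.32e-12). Genes of the tricarboxylic acid cycle followed the list with smaller changes. Of 26 tested, 12 fell and 1 rose (Idh3b, 0.21), and the largest change was in Pcx, which feeds the cycle with oxaloacetate (−0.55, adjusted p = 9.79e-10).

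ATF4 targets, which import and make amino acids and guard against oxidative stress, were mostly lower. Of 34 tested, 24 fell and 7 rose, and the median log2 fold change was −0.42. Ddit4, an inhibitor of the growth kinase mTORC1, was at 47.7, 45.7 and 51.4 CPM without and 16.5, 16.1 and 19.0 CPM after OGD/R (−1.49 ± 0.08, adjusted p = 2.67e-13). Slc7a11, the transporter that exchanges glutamate for cystine, was at 59.0, 52.3 and 47.1 CPM without and 24.3, 20.9 and 17.5 CPM after OGD/R (−1.34 ± 0.10, adjusted p = 1.65e-10). Chac1, which degrades glutathione, had 31, 24 and 43 counts without and 11, 14 and 7 counts after OGD/R (−1.58 ± 0.35, adjusted p = 0.000476). None of these 3 genes showed overlap between the groups. The 3 members that rose most were amino acid carriers and a secreted hormone, namely Slc7a5 (0.60), Slc1a5 (0.32) and Stc2 (0.30).

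The promoters of Chac1 and Slc7a11 are shown because these 2 genes are among the lowest of the ATF4 list and hold the C/EBP-ATF composite, TGATGNAA, the letters bound by ATF4 with a C/EBP partner. They are given as above, from RefSeq on GRCm38.p6 and from 250 to 21 bases before the start, with matches on either strand in capitals. Chac1 lies on the plus strand at chr2:119350992-119351221 and Slc7a11 on the minus strand at chr3:50443634-50443863.
Chac1: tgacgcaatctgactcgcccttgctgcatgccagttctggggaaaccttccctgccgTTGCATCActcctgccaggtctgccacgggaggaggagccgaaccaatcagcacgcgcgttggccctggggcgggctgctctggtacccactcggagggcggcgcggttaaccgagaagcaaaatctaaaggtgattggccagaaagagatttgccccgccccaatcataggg
Slc7a11: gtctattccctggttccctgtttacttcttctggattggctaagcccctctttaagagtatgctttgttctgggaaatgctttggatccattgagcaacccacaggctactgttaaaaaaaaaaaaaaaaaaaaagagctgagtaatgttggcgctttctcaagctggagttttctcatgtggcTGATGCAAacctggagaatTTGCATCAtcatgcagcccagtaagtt
The match in Chac1 begins 193 bases before the start, and those in Slc7a11 begin 66 and 47 bases before it, on opposite strands. The composite stood in 7 of 31 promoters of the ATF4 list (22.6%), in 0 of 33 of the hypoxia list and in 2.03% of all promoters. Among genes at least 2-fold lower it was found in 3.63% and among those at least 2-fold higher in 5.0%. Of the other motifs searched on both strands, AP-1 (TGANTCA) stood in 4.26% of all promoters, 8.33% of those 2-fold higher and 7.66% of those 2-fold lower, and in 20.6% of the NF-κB list. The NF-κB consensus stood in 8.46% of all promoters, 11.7% and 8.47% of the 2-fold higher and lower sets and 38.2% of 34 promoters of the NF-κB list. CRE (TGACGTCA) was in 2.83% of all promoters, the E-box CACGTG, which contains the hypoxia core, in 8.56%, and the STAT motif TTCCNGGAA in 1.01%. In the 2-fold higher set these 3 stood in 0.0%, 5.0% and 0.0% of promoters, and in the 2-fold lower set in 1.61%, 6.05% and 0.403%. A match of these letters is a description of the window and not a site in use.

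Chaperones rose more often than they fell. Among 29 genes of ER chaperones and the unfolded protein response, 15 rose and 7 fell. Creld2, a disulfide isomerase of the ER, was at 57.2, 53.1 and 56.6 CPM without and 100.3, 93.8 and 93.8 CPM after OGD/R (0.79 ± 0.06, adjusted p = 6.91e-11). Dnajb11, a co-chaperone of BiP, rose by 0.56, while Xbp1 and Ern1, the transcription factor and the sensor of 1 branch of this response, changed by −0.31 and −0.32. Of 31 heat shock chaperones, 15 rose and 6 fell, with a median of 0.12. Hspa8, the constitutive HSC70, was at 2155, 2031 and 2112 CPM without and 3769, 3647 and 3470 CPM after OGD/R (0.79 ± 0.04, adjusted p = 2.67e-13). Hsph1, its nucleotide exchange factor, changed by 0.79 and Ahsa1, which activates the ATPase of HSP90, by 0.73. Hspa4l (−0.61) and Dnajb4 (−0.45) went the other way. Of 20 aminoacyl-tRNA synthetases, 1 rose and 5 fell, Cars (−0.43) and Gars (−0.33) most.

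Genes of DNA replication rose almost without exception. Of 54 tested, 52 rose and 0 fell, with a median log2 fold change of 0.44, and the summed level went from 6482, 6272 and 6480 CPM to 9012, 8872 and 9031 CPM. Uhrf1, which brings the maintenance methyltransferase to newly copied DNA, was at 189, 174 and 187 CPM without and 374, 358 and 396 CPM after OGD/R (1.03 ± 0.05, adjusted p = 1.01e-13). Cdc6, which loads the replicative helicase, was at 39.6, 39.3 and 38.3 CPM without and 76.1, 78.1 and 69.9 CPM after OGD/R (0.94 ± 0.06, adjusted p = 2.92e-12). Mcm5, a subunit of that helicase, was at 315, 309 and 332 CPM without and 581.9, 571 and 615 CPM after OGD/R (0.89 ± 0.05, adjusted p = 3.74e-13). In each of these genes the lowest library after OGD/R was far above the highest untreated one.

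Genes of mitosis moved less and not all one way. Of 59 tested, 34 rose and 7 fell, with a median of 0.17. Espl1, the separase that releases sister chromatids (0.47, adjusted p = 1.60e-08), Spc24 of the kinetochore (0.47) and Kif23 of the midbody (0.46) rose most. Nusap1, which bundles spindle microtubules (−0.44), Ccnb2, a mitotic cyclin (−0.37), and Hmmr (−0.26) fell most. Of 24 cyclins, kinases and inhibitors of G1, 12 rose and 7 fell. Ccne1, the cyclin that drives entry into S phase, was at 46.3, 45.1 and 51.2 CPM without and 81.7, 82.0 and 84.9 CPM after OGD/R (0.80, adjusted p = 6.91e-11). Ccnd2 (0.60) and E2f1 (0.58) rose with it. Cdkn1a, the inhibitor p21, was at 32.9, 38.3 and 40.4 CPM without and 21.7, 19.6 and 21.0 CPM after OGD/R (−0.85 ± 0.12, adjusted p = 1.30e-06), and Rb1, which holds E2F factors back, changed by −0.67. Myc, a driver of growth, was at 7.72, 8.28 and 7.58 CPM without and 2.91, 3.54 and 2.28 CPM after OGD/R (−1.42 ± 0.16, adjusted p = 6.97e-08), against the direction of the cyclins.

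Genes of ribosome biogenesis rose as well. Of 55 genes tested, 47 rose and 1 fell, the median was 0.48, and the summed level went from between 12220 and 12900 CPM to between 16120 and 16930 CPM. Grwd1, a chaperone of ribosomal protein L3, was at 36.1, 34.6 and 36.8 CPM without and 71.5, 69.9 and 72.4 CPM after OGD/R (0.99 ± 0.06, adjusted p = 5.38e-12). Utp20 (0.80, adjusted p = 3.30e-12) and Rrp9 (0.75, adjusted p = 5.66e-12), both of the machinery that processes the small subunit's RNA, followed. The proteins of the finished cytosolic ribosome did not share this direction. Of 82 tested, 34 fell and 11 rose, with Rps25 (−0.63) and Rpl5 (−0.63) lowest and Rps29 (0.74) highest. These genes have near-identical copies in the genome, and how reads that match several places were counted is not given in the sources used here, so single values are uncertain. Mitochondrial ribosomal proteins rose more often than they fell, in 33 and 9 of 77, with Mrpl51 highest (0.67) and Mrpl33 lowest (−0.59). Among 32 proteasome subunits 16 rose and 3 fell, and Adrm1, a ubiquitin receptor, changed most (0.64, adjusted p = 5.97e-09).

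**Figure D4:**
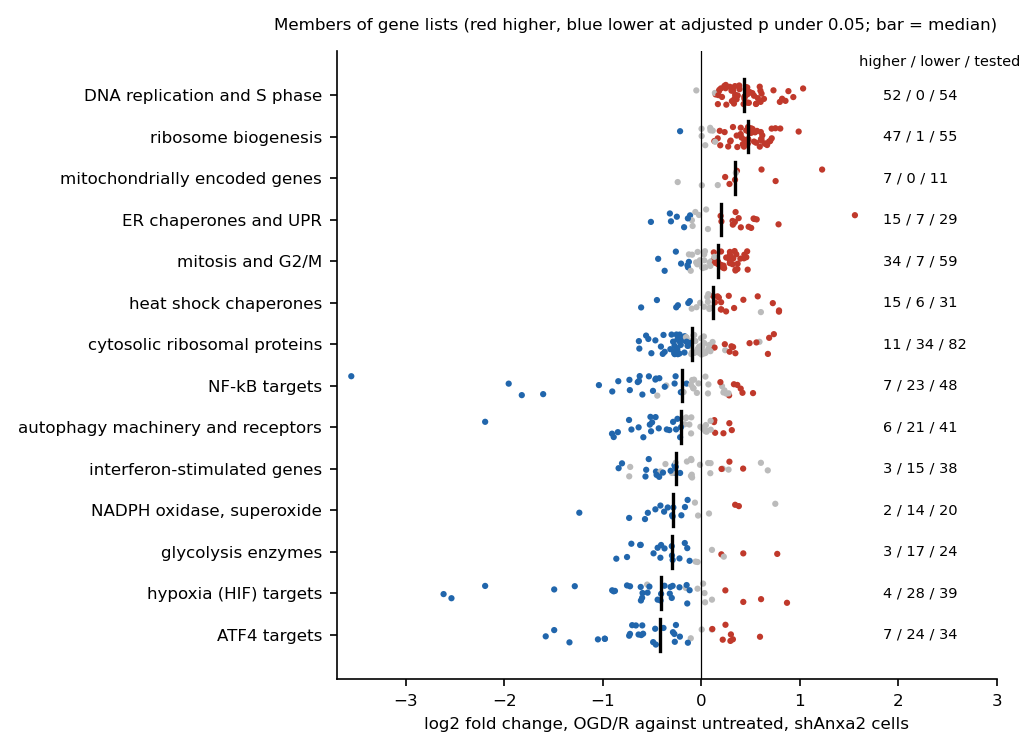
Log2 fold change of OGD/R against untreated shAnxa2 cells (horizontal axis) for every tested member of 14 gene lists (vertical axis), red where higher and blue where lower at an adjusted p under 0.05 and grey where not called, with the list median as a bar and the counts at the right. DNA replication (52 of 54 higher) and ribosome biogenesis (47 of 55 higher) lie to the right, and hypoxia targets (28 of 39 lower) and ATF4 targets (24 of 34 lower) to the left.

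No gene of the mitochondrial genome was called lower, and the nuclear genes for the same machinery changed in both directions. Of 11 mitochondrially encoded genes tested, 7 rose and 0 fell, with a median of 0.34, and their summed level was 2849, 2678 and 2758 CPM without and 3628, 3813 and 3376 CPM after OGD/R. mt-Cytb, the cytochrome b of complex III, was at 545, 523 and 533 CPM without and 907, 968 and 828 CPM after OGD/R (0.76 ± 0.06, adjusted p = 5.59e-10), and mt-Nd4 of complex I changed by 0.61. The largest change, 1.23 in mt-Co2, lay at a far lower level, 0.635 to 1.78 CPM without and 2.43 to 2.96 CPM after OGD/R. How reads of the mitochondrial genome were counted is not given in the sources used here, so the levels of these genes are uncertain. Among 76 nuclear genes of oxidative phosphorylation, 24 fell (31.6%, against 26.8% over all genes), 12 rose (15.8%, against 28.2%) and 40 were not called, with a median of −0.086. Ndufv3, a subunit of complex I, was lowest at −0.71 (adjusted p = 2.65e-08) and Cox6b1, a subunit of complex IV, was among the highest at 0.42 (adjusted p = 0.000538).

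Inflammatory genes changed in both directions. Of 48 NF-κB targets tested, 23 fell and 7 rose, with a median log2 fold change of −0.19, or −0.10 without the third library after OGD/R. Below Nos2, the targets that fell most were Lcn2, which binds the iron carriers of bacteria, and Il1a. Lcn2 was at 17.8, 19.3 and 12.6 CPM without and 4.59, 4.57 and 3.59 CPM after OGD/R (−1.95 ± 0.16, adjusted p = 7.63e-10). Il1a, the alarm cytokine interleukin 1 alpha, was at 13.4, 12.8 and 10.2 CPM without and 4.59, 3.38 and 2.33 CPM after OGD/R (−1.82 ± 0.16, adjusted p = 1.64e-09). The highest targets were Ccl7 (0.53), Ccl2 (0.42) and Plau (0.40), all with lower levels in shCtrl cells after OGD/R. Of these, Ccl2, which attracts monocytes, was at 119, 147 and 99.95 CPM without and 167, 185 and 137 CPM after OGD/R, so that its groups overlapped.

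Over 31 cytokines and chemokines 10 fell and 6 rose. Their median was −0.04 and became 0.02, 0.01 or 0.10 without untreated library 1 or 3 or without library 2 after OGD/R, so the median had no stable sign. The summed level of the list was lower after OGD/R, at 8291 to 8831 CPM against 9973 to 10370 CPM without. Il15, which sustains lymphocytes, was at 8.56, 10.0 and 7.62 CPM without and 3.42, 3.70 and 4.32 CPM after OGD/R (−1.19, adjusted p = 9.34e-08). Cxcl2, which attracts neutrophils, was at 30.6, 30.1 and 27.5 CPM without and 18.5, 17.8 and 12.8 CPM after OGD/R (−0.84, adjusted p = 1.21e-06). Interferon-stimulated genes fell in 15 and rose in 3 of 38, with a median of −0.26. The antiviral Rsad2 was at 16.8 to 18.1 CPM without and 8.44 to 11.4 CPM after OGD/R (−0.80, adjusted p = 2.42e-06). Of 20 genes of MHC class I and peptide loading, 10 fell and 4 rose. Their summed level moved the other way, from between 4865 and 4990 CPM to between 5028 and 5264 CPM. H2-T23 fell by 0.79 on the log2 scale (adjusted p = 7.48e-09), and the members of this family share sequence, so their separate values are uncertain. Calr, a chaperone of class I that is also a chaperone of the ER, changed by 0.35.

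The genes of inflammation and apoptosis in this paragraph were also followed by the study in BV2 cells, and they changed less than Nos2, Anxa2 (−1.04) and C3 (−0.97). Tnf, the cytokine TNF, was at 81.6, 80.6 and 88.6 CPM without and 119, 107 and 98.1 CPM after OGD/R (0.37 ± 0.07, adjusted p = 0.000165), higher in every library. Ptgs2, the inducible cyclooxygenase 2, was at 44.5, 46.8 and 43.9 CPM without and 41.4, 40.5 and 30.9 CPM after OGD/R (−0.26 ± 0.09, adjusted p = 0.0172). This call was lost without the second untreated library (−0.23, adjusted p = 0.0619) or the third library after OGD/R (−0.14, adjusted p = 0.14). Bax, which permeabilizes mitochondria in apoptosis, was at 57.8, 59.9 and 61.0 CPM without and 78.3, 74.97 and 78.7 CPM after OGD/R (0.37 ± 0.05, adjusted p = 2.20e-06). Bcl2, which opposes it, was at 25.3, 25.6 and 25.6 CPM without and 19.5, 20.5 and 21.6 CPM after OGD/R (−0.31 ± 0.07, adjusted p = 0.00102). Both separated the groups fully.

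The other followed genes given here did not pass the test. Il1b had 3.85 to 6.45 CPM without and 4.66 to 7.14 CPM after OGD/R (0.23 ± 0.19, adjusted p = 0.325), and Mrc1, a mannose receptor, had 2.93 to 3.22 and 2.19 to 3.06 CPM (−0.18 ± 0.18). Of the NF-κB subunits and inhibitor, Rela changed by 0.12 ± 0.07 (adjusted p = 0.112), Nfkb1 by 0.07 ± 0.05 (adjusted p = 0.199) and Nfkbia by −0.08 ± 0.05 (adjusted p = 0.20). Without the second library after OGD/R, Rela was called at 0.18 (adjusted p = 0.0401), and Nfkbia was called at −0.12 (adjusted p = 0.044) with upper-quartile normalization. Arg1 and Il6 did not reach the level needed for the test.

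Receptors and adaptors of innate sensing did not stand out as a list. Among 26 genes of Toll-like receptor signalling 6 rose (23.1%) and 9 fell (34.6%), near the 28.2% and 26.8% over all genes, with a median of −0.041. Myd88, the adaptor shared by most of these receptors, was at 57.2, 55.0 and 54.0 CPM without and 97.6, 96.3 and 93.3 CPM after OGD/R (0.79 ± 0.05, adjusted p = 1.36e-11). Irak3, which restrains the pathway, was at 55.9, 51.3 and 49.5 CPM without and 31.4, 27.4 and 24.1 CPM after OGD/R (−0.92 ± 0.08, adjusted p = 7.23e-10), and Irak2, which transmits its signal, fell by 0.67. Of 16 complement genes 7 rose and 4 fell. Their summed level moved the other way, from between 668.2 and 750.6 CPM to between 545.6 and 573.5 CPM. C3, the central component, was at 377, 343 and 321 CPM without and 187, 179 and 164 CPM after OGD/R (−0.97 ± 0.07, adjusted p = 1.69e-11). Cfp, the stabilizer properdin, was at 12.4, 10.8 and 11 CPM without and 20.9, 21.0 and 21.2 CPM after OGD/R (0.88 ± 0.09, adjusted p = 1.34e-08), and C5ar1, the receptor of the fragment C5a, rose by 0.63.

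Homeostatic genes of microglia rose and fell at shares near those of all genes as well. Of 18 tested 6 rose (33.3%) and 5 fell (27.8%), with a median of 0.20 that became 0.05 without the third library after OGD/R. Tmem119, a marker of resting microglia, was at 5.82, 5.196 and 5.88 CPM without and 9.79, 10.7 and 10.3 CPM after OGD/R (0.87 ± 0.13, adjusted p = 4.03e-06). Trem2, a lipid receptor, rose by 0.37 and Csf1r, the receptor that microglia need to survive, by 0.32. Cx3cr1, the receptor of fractalkine, was at 5.33, 6.35 and 5.88 CPM without and 3.47, 3.02 and 2.67 CPM after OGD/R (−0.94 ± 0.17, adjusted p = 4.02e-05). Of 27 genes of disease-associated microglia 13 fell and 6 rose, with Cd52 (−1.24, adjusted p = 8.50e-12) and Fabp5, a fatty acid binding protein (−0.64, adjusted p = 2.06e-08), among the lowest.

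Phagocytic receptors fell in 9 and rose in 4 of 26. Marco, a scavenger receptor for particles, was at 36.5, 35.4 and 29.8 CPM without and 10.9, 10.2 and 8.05 CPM after OGD/R (−1.80 ± 0.10, adjusted p = 5.16e-13). Itgb3, the integrin beta 3 chain, changed by −2.01 from 2.66 to 2.98 CPM down to 0.612 to 0.834 CPM, and Cd47, the signal against uptake, by −0.87. Fcgr1, the high affinity receptor of IgG, rose by 0.45. In the plasminogen system, on which annexin A2 acts, and among the matrix metalloproteinases, 5 of 15 genes rose and 7 fell. Plaur, the receptor of urokinase, was at 22.2, 26.4 and 28.8 CPM without and 48.5, 44.8 and 47.5 CPM after OGD/R (0.86 ± 0.08, adjusted p = 1.82e-09), while urokinase itself, Plau, rose from between 99.5 and 105 CPM to between 133 and 137 CPM. Of 16 annexins and S100 genes tested 8 fell and 0 rose. S100a1 was at 134, 98.96 and 117 CPM without and 51.6, 55.0 and 45.7 CPM after OGD/R (−1.20 ± 0.08, adjusted p = 3.15e-11), and Anxa6 fell from 139 to 145 CPM to 86.3 to 90.8 CPM (−0.69 ± 0.05, adjusted p = 1.32e-11).

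Genes that make and clear reactive oxygen were mostly lower. Of 20 genes of the NADPH oxidase and of superoxide clearance 14 fell and 2 rose, with a median of −0.29. Cybb, the catalytic subunit of the phagocyte oxidase, was at 690, 675 and 617 CPM without and 314, 283 and 243 CPM after OGD/R (−1.24 ± 0.07, adjusted p = 9.02e-13), so that the lowest untreated library stood above all libraries after OGD/R. Gpx1, a glutathione peroxidase, rose by 0.38. NRF2 and glutathione genes rose in 11 (34.4%) and fell in 12 (37.5%) of 32. Within this list Txnrd1, thioredoxin reductase 1, was at 223, 215 and 227 CPM without and 343, 330 and 358 CPM after OGD/R (0.63 ± 0.05, adjusted p = 5.58e-10), and both chains of the enzyme that begins glutathione synthesis rose, Gclm by 0.53 and Gclc by 0.52. Hmox1, heme oxygenase 1, was at 413, 430 and 433 CPM without and 271, 285 and 286 CPM after OGD/R (−0.60 ± 0.06, adjusted p = 5.53e-09), and Gpx4, which protects membrane lipids, fell by 0.54.

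Iron genes fell more often than they rose and zinc genes the reverse. Of 20 iron genes 10 fell and 4 rose. Cp, the ferroxidase ceruloplasmin, was at 19.7, 15.2 and 13.8 CPM without and 4.34, 5.28 and 3.54 CPM after OGD/R (−1.87 ± 0.14, adjusted p = 1.65e-10). Steap3, an endosomal iron reductase, rose by 0.54 and Tfrc, named above, was at 476, 517 and 473 CPM without and 760, 784 and 689 CPM after OGD/R. Of 13 genes of metallothioneins and zinc transport 9 rose and 2 fell, with Slc39a6 (0.79) and Slc39a14 (0.63), which bring zinc into the cytosol, highest. Arginine can be turned into nitric oxide or into polyamines. Odc1, ornithine decarboxylase, was at 247, 254 and 276 CPM without and 405, 391 and 386 CPM after OGD/R (0.60 ± 0.05, adjusted p = 1.09e-09) and Srm, spermidine synthase, rose by 0.55, whereas Nos1, the neuronal nitric oxide synthase, was at 45.8, 50.4 and 47.9 CPM without and 16.6, 17.9 and 18.6 CPM after OGD/R (−1.44 ± 0.08, adjusted p = 4.52e-13).

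Signalling genes held some of the clearest single changes. Dusp6, the phosphatase that ERK induces to switch itself off, was at 10.1, 10.5 and 13.02 CPM without and 23.9, 24.3 and 27.3 CPM after OGD/R (1.16 ± 0.13, adjusted p = 5.47e-08). In its list of 23 ERK feedback genes 7 rose and 7 fell, 30.4% each, near the 28.2% and 26.8% over all genes. Id3, a target of BMP signalling, was at 14.7, 12.9 and 15.96 CPM without and 36.0, 32.7 and 38.3 CPM after OGD/R (1.29 ± 0.10, adjusted p = 1.64e-10), within a list of 25 TGF-beta and BMP genes in which 11 rose and 1 fell. Fos, an immediate early gene, was at 3.57, 4.62 and 3.69 CPM without and 8.32, 6.32 and 6.60 CPM after OGD/R (0.83 ± 0.15, adjusted p = 4.76e-05). Atf3 of the same list fell by 0.60, and the list of 24 had 10 higher and 6 lower genes. Among 31 genes of JAK, STAT and SOCS 12 fell and 3 rose. Tyk2, the kinase of interferon and interleukin receptors, was at 190, 179 and 178 CPM without and 85.1, 88.2 and 88.9 CPM after OGD/R (−1.06 ± 0.05, adjusted p = 8.72e-14), and Il10ra, the receptor of interleukin 10, fell by 0.89. Rora, a nuclear receptor of the clock, was at 17.4, 16.7 and 16.4 CPM without and 5.51, 4.17 and 5.19 CPM after OGD/R (−1.77 ± 0.11, adjusted p = 6.68e-12), and 9 of 18 clock genes fell and 2 rose.

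Lipid genes fell more often than they rose, though single genes rose as well. Of 29 genes of cholesterol synthesis and SREBP 15 fell (51.7%, against 26.8% over all genes) and 8 rose (27.6%, against 28.2%). Fasn, fatty acid synthase, was at 772, 727 and 793 CPM without and 1154, 1202 and 1294 CPM after OGD/R (0.67 ± 0.05, adjusted p = 5.09e-11), and Mvd, of the sterol branch, was at 91.3, 89.9 and 88.2 CPM without and 54.5, 50.02 and 50.2 CPM after OGD/R (−0.80 ± 0.05, adjusted p = 8.54e-12). Cpt1a, which admits fatty acids to mitochondria, rose by 0.85 in a list of 27 LXR and PPAR genes with 4 higher (14.8%) and 13 lower (48.1%). Of 44 lysosomal genes 14 fell (31.8%) and 5 rose (11.4%), with Naglu, a hydrolase, among the lowest (−0.91). The autophagy list fell in 21 and rose in 6 of 41 genes, with a median of −0.20, and below Bnip3 the lowest members were Ulk2, a starting kinase, at −0.91 (adjusted p = 3.38e-10), and Bnip3l. Among 18 genes of prostaglandin and leukotriene synthesis 6 rose (33.3%) and 5 fell (27.8%), near the shares over all genes. Ptges, which makes prostaglandin E2, was at 4.30, 4.81 and 5.16 CPM without and 2.70, 2.46 and 2.33 CPM after OGD/R (−0.94 ± 0.17, adjusted p = 5.16e-05).

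Genes of cell death and p53 did not share a direction. Of 28 p53 targets 14 fell and 6 rose, and Trp53 itself was at 303, 283 and 308 CPM without and 423, 426 and 458 CPM after OGD/R (0.55 ± 0.05, adjusted p = 5.84e-09). Aen, an apoptotic nuclease, was at 27.9, 26.2 and 31.8 CPM without and 53.7, 50.5 and 61.1 CPM after OGD/R (0.94 ± 0.08, adjusted p = 5.59e-10), while Bbc3, the killer PUMA, was at 23.1, 19.9 and 19.3 CPM without and 12.4, 11.01 and 13.04 CPM after OGD/R (−0.77 ± 0.10, adjusted p = 4.99e-07). Over 34 regulators of apoptosis 12 rose (35.3%) and 13 fell (38.2%), among them Bid (0.61), Bik (−1.14) and Birc3, an inhibitor (−0.73). In the cytoskeleton list, 13 of 43 genes rose (30.2%) and 10 fell (23.3%), near the 28.2% and 26.8% over all genes. Actg1, gamma actin, was at 121, 128 and 135 CPM without and 194, 191 and 233 CPM after OGD/R (0.69 ± 0.08, adjusted p = 1.15e-07), Myh9, non-muscle myosin, rose by 0.55, and Gsn, which severs filaments, was at 666, 702 and 704 CPM without and 388, 393 and 440 CPM after OGD/R (−0.76 ± 0.05, adjusted p = 4.44e-11). Of 24 integrins and adhesion genes 7 rose and 7 fell, 29.2% each, also near the shares over all genes. Among 15 purinergic receptors and ectonucleotidases, which sense and clear ATP released by damaged cells, 3 rose and 4 fell, P2rx1 (−1.28, adjusted p = 1.77e-07) most, and Entpd1, the ectonucleotidase CD39, was at 51.0, 47.7 and 49.1 CPM without and 32.2, 29.7 and 26.9 CPM after OGD/R (−0.74, adjusted p = 2.55e-09). Of 12 genes of the Txnip and arrestin-domain list 4 rose and 3 fell.

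The change in shAnxa2 cells differed from that in shCtrl cells for 8136 genes (70% of those tested) in the interaction contrast of the same edgeR model. In shCtrl cells 3764 genes (32.4%) were higher and 3609 genes (31%) lower after OGD/R. Called genes went in opposite directions in the 2 lines in 5165 cases and in the same direction in 75. Of the 412 genes with 2-fold changes in shAnxa2 cells, 394 differed between the lines and 325 of these were called the other way in shCtrl cells. A further 1152 genes were called in shAnxa2 and not in shCtrl cells, and for 870 of them the difference itself was called. As examples, Nos2 changed by −3.55 in shAnxa2 and 4.12 in shCtrl cells, a difference of −7.68 ± 0.17 (SE, adjusted p = 1.82e-20), and Uhrf1 by 1.03 and −1.03, a difference of 2.06 ± 0.07 (adjusted p = 1.50e-17). The lines started from different levels of these genes. Nos2 was at 2.38 to 3.63 CPM in untreated shCtrl and 81.5 to 93.8 CPM in untreated shAnxa2 cells (log2 difference 4.80, adjusted p = 4.15e-19), and Uhrf1 at 328 to 352 and 174 to 189 CPM (−0.90, adjusted p = 2.67e-13).

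**Figure D5:**
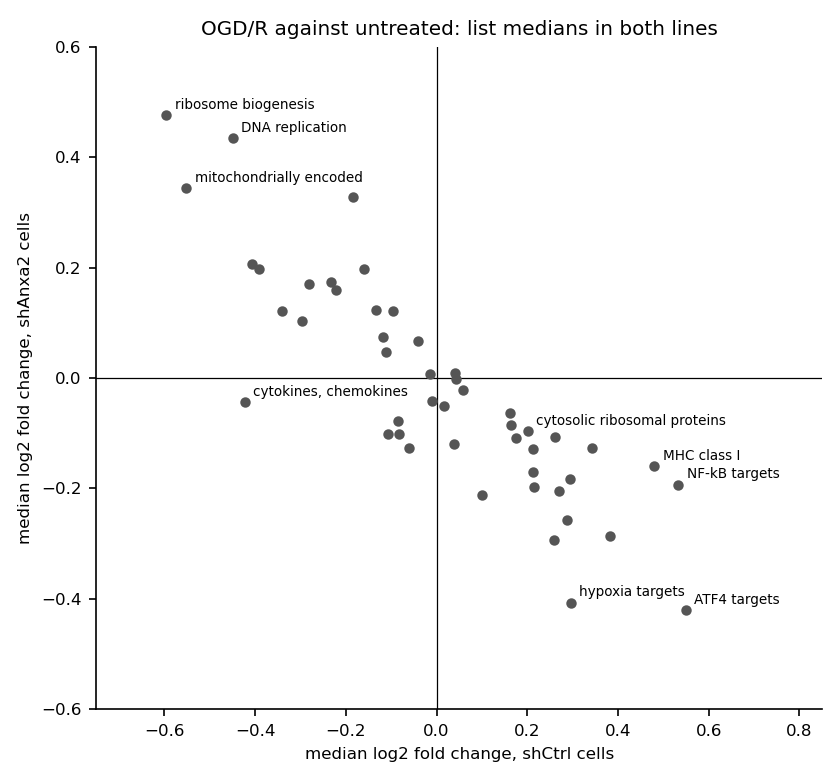
Median log2 fold change of OGD/R against untreated cells for 48 gene lists in shCtrl cells (horizontal axis) and shAnxa2 cells (vertical axis), one point per list. Ribosome biogenesis (−0.596 and 0.476), DNA replication (−0.449 and 0.435) and mitochondrially encoded genes (−0.552 and 0.344) lie at the upper left and ATF4 targets (0.55 and −0.421) and hypoxia targets (0.296 and −0.407) at the lower right; cytokines and chemokines (−0.423 and −0.0433) lie apart from both.

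Of the 48 pathway lists, 41 had medians of opposite sign in the 2 lines and 7 had medians of the same sign, among them cytokines and chemokines (−0.0433 in shAnxa2 and −0.423 in shCtrl cells), apoptosis regulators (−0.0779 and −0.0848) and phagocytic receptors (−0.101 and −0.0824). Ribosome biogenesis had a median log2 fold change of 0.476 in shAnxa2 and −0.596 in shCtrl cells, and the difference was called for 52 of 55 genes. For DNA replication the medians were 0.435 and −0.449, with 50 of 54 called, for hypoxia targets −0.407 and 0.296, with 35 of 39, and for ATF4 targets −0.421 and 0.55, with 31 of 34. NF-κB targets had medians of −0.193 and 0.533, with 38 of 48 genes called. Tnf ran against most genes of its list, with 0.37 in shAnxa2 and −0.74 in shCtrl cells and a difference of 1.11 ± 0.11 (SE, adjusted p = 2.69e-09).

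The 75 genes with the same direction in both lines, 42 higher and 33 lower, are few among those called and their changes are small. Of those named by size, Vamp1, a protein of vesicle fusion, was at 8.12, 8.32 and 8.62 CPM without and 10.3, 11.1 and 10.8 CPM after OGD/R, a log2 fold change of 0.36, against 0.33 in shCtrl cells. Pianp, a membrane ligand of PILR-alpha, changed by 0.38 and 0.30, and Cox6b1 by 0.42 and 0.27. Among genes lower in both, Etv4, an ETS factor downstream of ERK, was at 11.2, 12.2 and 11.2 CPM without and 6.33, 7.39 and 7.32 CPM after OGD/R (−0.71, against −0.64 in shCtrl cells), Ccl9, a chemokine of macrophages, changed by −0.38 and −0.51, and Rgs14, a brake on G protein signalling, by −0.47 and −0.46.

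Lars2, the mitochondrial leucyl-tRNA synthetase, stood highest in the plot of changes because of 1 library. It was at 37.0, 73.7 and 48.3 CPM in the untreated libraries and at 3394, 59.6 and 68.6 CPM after OGD/R, where the first library held 66525 counts. The groups overlapped. Its log2 fold change of 4.47 ± 0.92 (adjusted p = 0.000244) became 0.27 (adjusted p = 0.514) without that library. In the 6 shCtrl libraries Lars2 was at 19.9 to 112 CPM. Leaving Lars2 out of the table left 3141 higher and 3246 lower genes.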

How the data were processed

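RNA of BV2 cells was sequenced in 12 libraries, 3 in each of 4 groups, of which the 6 shAnxa2 libraries are described. The authors deposited raw counts of reads per gene for 21834 protein-coding genes. Of these, 14 genes have no name, 20 names belong to more than 1 gene and 5636 genes have no count. The table also holds 12 columns of normalized per-sample values, which were not used. The submitters' processing notes name HISAT2 2.0.4 and mm39, the paper's methods, written for hippocampi, name other tools, and the strand setting is not given in the sources used here. The library kit was NEBNext Ultra RNA.

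Groups came from the sample names, and the members and gene lists were chosen with earlier results of these data known. Counts were normalized by TMM in edgeR 4.0.16 (R 4.3.3), genes needed 0.5 CPM in 3 libraries, and 1 quasi-likelihood model without covariates over all 12 libraries (4 groups) gave each contrast, with Benjamini-Hochberg adjustment over 11626 genes. Called means an adjusted p under 0.05. The same steps, tested on simulated counts of this comparison, called 197 of 200 changed genes (98.5%) and 16 unchanged genes among 11503 tested. The changed genes of the simulation had at least 1 CPM and at least a 1.5-fold change, and every gene had the same spread. Most calls in the data are below 1.5-fold, so the recovery of changes of that size was not measured. No 2 replicates agreed within sampling noise (chi-square per gene 4.0 to 13.3), and each library counted once. The highest values, 10.1 and 13.3, belong to the pairs with the first shAnxa2 library after OGD/R. Lars2, whose counts in that library stand apart, was not left out of this measure.

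Genes were named by rule. These are the 12 per direction with the largest change, a mean of 1 CPM and no overlap, genes measured in BV2 cells by the study, up to 3 called members per direction of each list, the 5 per direction with the largest difference between the lines, the 5 per direction called alike in both lines, and Lars2. Unnamed and predicted genes were left out. Some genes that these rules name are not reported here. Of 54 lists, 48 are pathways with 1375 genes tested and 6 are cell type markers. Lists were described by counts and medians, with no set test. Alternatives were no filter or 1 CPM, 3 other normalizations, the 6 libraries alone, DESeq2 1.42.0, limma 3.58.1 voom, a replicate block, a fold limit of 1.5, and leaving out Lars2 or each library. Python 3.11.15 read the tables and drew the plots. Promoters, of 9345 genes, came from RefSeq on GRCm38.p6.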

Additional observations from a re-analysis of the deposited data

Results flagged for a closer look

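The change after OGD/R differed between shAnxa2 and shCtrl cells, by the interaction contrast of the edgeR model at an adjusted p under 0.05, for 8136 genes, with the change in shAnxa2 cells the higher one in 4059 and the lower one in 4077. The differences below are the log2 fold change in shAnxa2 cells minus that in shCtrl cells. Among genes whose change was higher in shAnxa2 cells, the difference was 4.66 for Trem1 (1.49 and −3.17), 4.47 for Dmpk (1.89 and −2.58), 4.38 for Mmp12 (2.12 and −2.27) and 3.57 for Dusp6 (1.16 and −2.41). In the other direction it was −10.94 for Ip6k3 (−4.86 and 6.08), a gene with 0, 4 and 1 counts in the untreated shCtrl libraries and 4, 2 and 3 counts in the shAnxa2 libraries after OGD/R. It was −7.74 for Zc3h6, −7.68 for Nos2, −6.95 for Aqp3 and −6.92 for Vnn3. For Anxa2, the gene the shRNA is directed against, it was −1.74 (−1.04 and 0.70), and for Tnf it was 1.11 (0.37 and −0.74). The difference of 5.26 for Lars2 (4.47 and −0.79) rests on the first library after OGD/R, without which its change in shAnxa2 cells was 0.27 (adjusted p = 0.514). Together with the distances between libraries given above, these values rest on the treatment part of the sample names, and what set the opposite changes was not tested.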

How the results depend on the processing

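The counts of genes kept within 1.5 times their value under every alternative run except 2. A filter of 1 CPM gave 54 genes at least 2-fold higher in place of 94, since most of these genes lie at low levels, and a fold limit of 1.5 gave 485 higher and 916 lower genes. Leaving out 1 library at a time gave 2935 to 3079 higher and 2802 to 2930 lower genes, 81 to 114 at least 2-fold higher and 278 to 327 at least 2-fold lower, and 7814 to 8004 genes that differed between the lines. DESeq2 gave 3138 higher and 3123 lower genes, and limma voom 3242 and 3078. The 6 shAnxa2 libraries alone gave 3064 higher and 3044 lower genes, with 77 at least 2-fold higher and 293 at least 2-fold lower. Scaling moved the balance of the calls, with 2764 higher and 3580 lower by upper-quartile and 2959 and 3388 by library totals. With the replicate number as a replicate block the counts were 3381 and 3212, with 94 and 316 at least 2-fold changed and 8263 for the difference between the lines, and Rela gained a call (0.12, adjusted p = 0.0441). Nothing in the labels ties libraries of the same number. The correlations of same-numbered deviations in shAnxa2 cells were 0.024, 0.0439 and 0.135, and in 2 of the 3 pairs the library correlated best with its own number. Whether same-numbered libraries shared handling cannot be told from these values. The level difference of Anxa2 was −21.23 CPM by library totals and −20.73 CPM with TMM. Of 294 named genes, 32 lost their call under at least 1 alternative, 3 gained one and 0 changed direction with a call in either fit. A change of sign in a gene called in neither fit was not counted. List medians moved by more than the spread between replicates in 107 of 864 cases, over 37 of 54 lists. Their sign turned in the lists of cytokines and chemokines, Txnip and arrestin-domain genes, NRF2 and glutathione genes, integrins and adhesion, and astrocyte markers. With 3 libraries a group, changes of genes near the filter are known only roughly.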
